A study of Mus musculus with 3 samples.

Results

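Integrins are adhesion receptors in which 1 alpha chain and 1 beta chain span the membrane together, and the 10 genes described here encode the chains by which blood progenitors hold to bone marrow: 7 alpha chains (Itga4, Itga5, Itga6, Itga9, Itgal, Itgam and Itgav) and 3 beta chains (Itgb1, Itgb2 and Itgb7). They were taken by symbol, from a list chosen with earlier results of these data known. All 10 were found among the 24421 genes of the count files. The cells were hematopoietic stem and progenitor cells (HSPCs) of mouse bone marrow, sorted for c-Kit and Sca-1 and against Ter119, Gr-1, B220, CD11b, CD8a and CD4. All 3 libraries belong to 1 control group, titled UCK control, of C57BL/6 mice with the genotype Cicflox/flox + tamoxifen, in which both alleles of the repressor gene Capicua (Cic) are flanked by loxP sites. The sources used here do not give age, tamoxifen dose or any Cre driver, and mice with the gene deleted were not analysed here, so nothing below is a contrast of genotypes. Nothing in the labels says that the 3 libraries came from separate mice, so the spread between them, and any p-value built on it, may be technical.

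The alpha 4 chain joins beta 1 to form VLA-4, which binds fibronectin and the marrow stromal molecule VCAM-1, or beta 7 to form LPAM-1, which binds MAdCAM-1 on gut vessels. Beta 1 also pairs with alpha 5 (a fibronectin receptor), alpha 6 (laminin receptors), alpha 9 and alpha v, while beta 2 occurs on leukocytes only, with alpha L in LFA-1, a receptor of ICAM molecules, and with alpha M in Mac-1. VLA-4 and VLA-5 are known for retaining progenitors in marrow, and release of VLA-4 binding mobilises them into blood. Alpha M is CD11b, a surface mark of granulocytes and macrophages that the sort selected against.

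Upstream sequence is shown for Itga4, Itga5 and Itgb1, the chains of both fibronectin receptors, and for Itgam, the chain whose product the sort selected against. Each is the run of 250 bases before the RefSeq start in GRCm38.p6, read 5′ to 3′ on the strand of the gene. Itga4 lies at chr2:79255176-79255425 (plus strand), Itga5 at chr15:103366792-103367041 (minus strand), Itgb1 at chr8:128685404-128685653 (plus strand) and Itgam at chr7:128062390-128062639 (plus strand). Capitals mark GAGGAA (letters of a PU.1 box), TGTGGT (letters of a Runx site) and GGGCGG (a GC box), each searched on both strands.
Itga4: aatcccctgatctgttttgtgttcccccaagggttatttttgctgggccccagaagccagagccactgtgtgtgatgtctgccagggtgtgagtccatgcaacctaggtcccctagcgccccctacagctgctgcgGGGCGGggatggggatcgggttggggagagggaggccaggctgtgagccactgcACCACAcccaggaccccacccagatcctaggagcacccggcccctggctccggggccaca
Itga5: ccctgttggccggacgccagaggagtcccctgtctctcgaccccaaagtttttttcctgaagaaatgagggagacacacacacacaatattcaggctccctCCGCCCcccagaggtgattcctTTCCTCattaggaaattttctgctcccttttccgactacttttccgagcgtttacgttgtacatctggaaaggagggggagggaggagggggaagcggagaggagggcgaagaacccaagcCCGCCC
Itgb1: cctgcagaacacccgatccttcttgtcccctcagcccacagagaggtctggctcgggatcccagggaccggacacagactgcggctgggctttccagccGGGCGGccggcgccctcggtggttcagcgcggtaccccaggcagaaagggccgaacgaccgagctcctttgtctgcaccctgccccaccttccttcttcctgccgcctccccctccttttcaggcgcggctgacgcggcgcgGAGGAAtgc
Itgam: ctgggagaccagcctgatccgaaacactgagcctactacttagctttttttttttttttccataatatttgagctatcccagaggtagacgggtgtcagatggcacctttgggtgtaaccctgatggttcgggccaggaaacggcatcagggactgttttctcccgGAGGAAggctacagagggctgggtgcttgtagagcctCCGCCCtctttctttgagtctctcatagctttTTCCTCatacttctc
The GAGGAA letters occurred 2 times before Itgam, 1 time before Itga5, 1 time before Itgb1 and 0 times before Itga4, and 23.3% of 32817 upstream windows of this length held them. Before Itga4 the TGTGGT letters occurred 1 time (14.0% of windows held them), and none of the other 3 printed windows held them. GGGCGG occurred in all 4 printed windows (2 times for Itga5), against 32.7% of windows. Of the members not printed, Itgav had 2 matches of GAGGAA and 0 of GGGCGG, and Itgb7 had 0 of each. These are letter matches only, and none of the count data measure binding.

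Gene counts, the reads assigned to genes, totalled 30718562, 25097769 and 30032593 in libraries 1, 2 and 3. Levels are given in CPM, the usual scaling of a gene's count by the gene counts of its library, with no spike-in or unassigned reads in the total. Checked against markers of the labelled cells, all 11 HSPC genes listed reached a mean of 1 CPM, as 53.1% of all genes did. So did 6 of 6 B cell, 6 of 6 mast cell and basophil and 7 of 8 megakaryocyte genes. It was also reached by 4 of 8 T and NK cell, 4 of 6 erythroid and 4 of 8 stroma genes. Passing this minimum therefore does not identify the cells. The sort genes Kit and Ly6a (the Sca-1 gene) had means of 826 ± 71.0 and 103 ± 9.50 CPM (SD, n = 3). Granulocyte-monocyte progenitor genes such as Mpo and Elane differed widely between the libraries, summing to 1088, 2089 and 3161 CPM over 6 genes, and 9 neutrophil genes summed to 185, 44.6 and 101 CPM. In whole sorted populations, fewer cells of a type and less RNA per cell cannot be told apart.

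Every one of the 10 chains was counted in all 3 libraries, and the lowest count of any was 416, for Itga9 in library 2. All passed a mean of 1 CPM, which 53.1% of all genes did. Their median level was 88.2 CPM, against 25.9 CPM over the 12965 genes that passed. Together they summed to 1387, 1359.5 and 1388 CPM in libraries 1, 2 and 3.

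**Figure D1:**
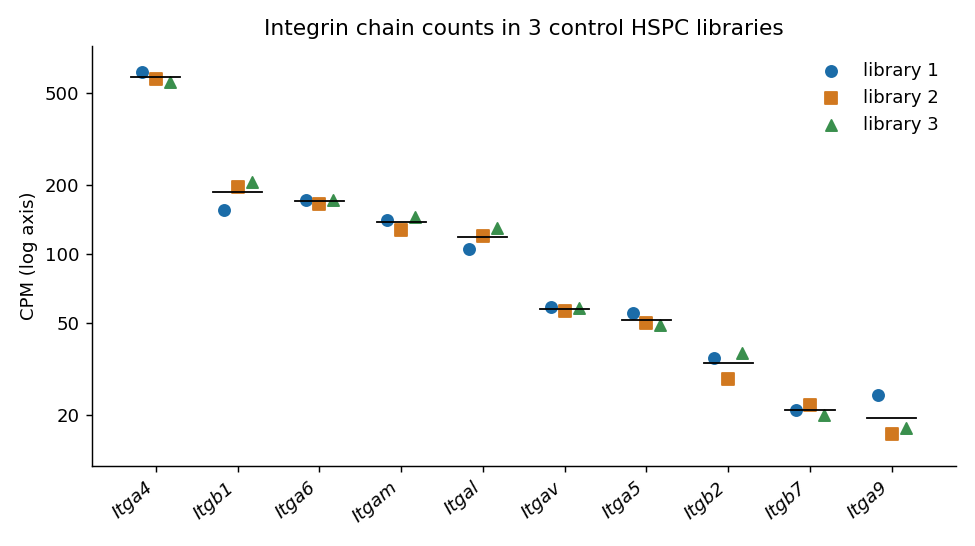
Level in CPM (log axis) of the 10 integrin chain genes in the 3 control libraries, with a bar at the mean of 3. Itga4 stands alone between 556 and 619 CPM, 4 chains lie from 105 to 204 CPM, and Itga9 and Itgb7 lie lowest.

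Itga4, which encodes the alpha 4 chain of VLA-4 and LPAM-1, had the highest counts of the set. The 3 libraries held 19017, 14488 and 16709 of its reads, which is 619, 577 and 556 CPM in that order. Its mean of 584 ± 31.9 CPM (SD, n = 3) was rank 155 among all genes and made up 42.4% of the reads of the 10 chains. The gene lies at chr2:79255426-79333123 on the plus strand (mm10 coordinates from GENCODE M21, as for all members). Its exons overlap those of Cerkl on the opposite strand over 1124 bases, where reads cannot be assigned without strand. Cerkl was at 5.26 ± 1.02 CPM.

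The other fibronectin and vitronectin receptor alpha chains were much lower. Itga5 (chr15:103344286-103366763, minus strand), the alpha chain of VLA-5, lay at 55.6, 50.0 and 48.9 CPM in libraries 1, 2 and 3, a mean of 51.5 ± 3.59. Itgav (chr2:83724397-83806916, plus strand), the alpha v chain of vitronectin receptors, lay at 58.6, 56.7 and 58.3 CPM, a mean of 57.9 ± 1.05. The SD of Itgav was 1.82% of its mean, close to that of Itga6 at 2.06%, and both were the smallest of the 10 with CPM from gene totals.

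Itga6 (chr2:71745616-71858416, plus strand), the laminin receptor chain also known as CD49f, was at 171, 165 and 171 CPM, with a mean of 169 ± 3.49. The libraries were thus nearly level for it as well. Itga9 (chr9:118606690-118901003, plus strand), a chain that binds tenascin and osteopontin, was the lowest at 24.4, 16.6 and 17.5 CPM (mean 19.5 ± 4.29). Library 1 was the high one for Itga9, 1.47-fold above library 2, the widest gap between libraries of any member.

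The leukocyte alpha chains were both well above the middle of expressed genes. Itgal (chr7:127296260-127335138, plus strand), the alpha L chain of LFA-1, was at 105, 119.9 and 130.1 CPM in libraries 1, 2 and 3, with a mean of 118 ± 12.4. Itgam (chr7:128062640-128118491, plus strand) was at 141, 128 and 144 CPM, with a mean of 138 ± 8.82 and rank 1557 among all genes. Itgam RNA was thus counted in a sort gated against its surface product, and no surface protein was measured. Of the 50-base words in Itgam transcripts, 66.3% also occur in Gm49368, a gene model laid over Itgam on the same strand, but that model is not in the count files. Itgam shared 0% of its words with any gene that was counted, and the same was true of 9 of the 10 members (Itga4 shared 0.0711%).

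Among the beta chains, beta 1 led. Itgb1 (chr8:128685654-128733200, plus strand), the shared partner of most of the alpha chains above, was at 156, 195 and 204 CPM in libraries 1, 2 and 3, with a mean of 185 ± 26.0. Library 1 was the low one. Itgb2 (chr10:77530252-77565708, plus strand), the beta chain of LFA-1 and Mac-1, was at 35.3, 28.8 and 37.0 CPM (mean 33.7 ± 4.35), with library 2 low. Itgb7 (chr15:102215995-102231944, minus strand), the second partner of alpha 4, was at 21.0, 22.1 and 19.9 CPM (mean 21.0 ± 1.101).

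A long transcript gathers more reads than a short one of equal copy number, so levels of different chains were compared per kilobase of annotated exons. On this scale Itgb1 and Itga4 were highest and did not differ beyond their spread, at 45.4 ± 6.38 and 41.8 ± 2.28 CPM per kilobase. Itgb1 was below Itga4 in library 1 (38.1 against 44.3) and above it in library 2 (47.9 against 41.3) and library 3 (50.1 against 39.8). Itgam followed at 27.4 ± 1.76, clear of Itga4 above and of Itga6 below in every library. Itga6 at 18.8 ± 0.387 and Itgal at 18.0 ± 1.89 overlapped, as did Itgb2 at 11.04 ± 1.42 and Itga5 at 10.4 ± 0.727. Below them Itgb7 (7.58 ± 0.398), Itgav (5.39 ± 0.0979) and Itga9 (2.53 ± 0.558) were each separate from their neighbours.

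In 6 of 9 neighbouring pairs the values of the 3 libraries did not overlap. The exact two-sided sign-flip test over 3 libraries cannot give a p under 0.25, which all 6 pairs reached, and 0.375 after Benjamini-Hochberg adjustment over 9 pairs. In the other 3 pairs this exact test gave p = 0.75 (also 0.75 adjusted). The closest of these was Itga6 over Itgal, 0.06 apart on the log2 scale (SD 0.16, higher in 2 of 3 libraries). The median expressed gene lay at 6.45 CPM per kilobase, and 8 of the 10 chains were above it, Itgb1 and Itga4 above 94.1% and 93.4% of the 12476 expressed genes with a known length.

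**Figure D2:**
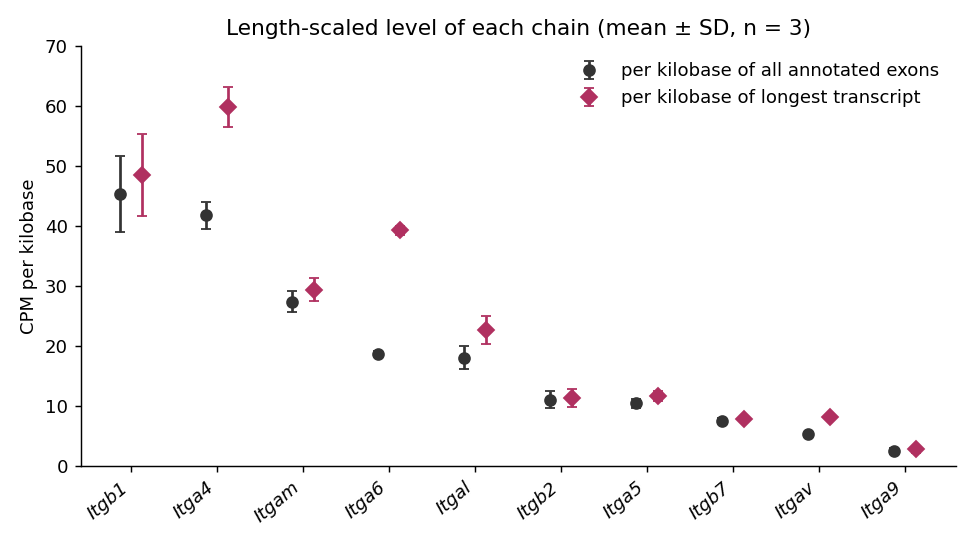
Level of each chain in CPM per kilobase (mean ± SD, n = 3), divided by the length of all annotated exons (circles) or of the longest annotated transcript (diamonds). Itga6 moves from 18.8 to 39.3, Itga4 from 41.8 to 59.8 and Itgav from 5.39 to 8.20, while the other 7 change by a smaller factor.

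The choice of length moved 3 chains by the largest factors. Annotated exons of Itga4 cover 13978 bases and its longest transcript 9767 bases, for Itga6 the lengths are 9025 and 4310 bases, and for Itgav 10744 and 7054 bases. Per kilobase of the longest transcript, Itga4 came first at 59.8 ± 3.27, clear of Itgb1 at 48.5 ± 6.82, and Itga6 at 39.3 ± 0.810 passed Itgam at 29.4 ± 1.88. The mean of Itgav, 8.20 ± 0.149, was then above that of Itgb7, 7.83 ± 0.410. The mean of Itga5, 11.7 ± 0.812, was above that of Itgb2, 11.3 ± 1.46. In both of these pairs the gap was smaller than the SD of the lower chain, so they did not differ beyond their spread. The order of the means within these 4 pairs therefore depended on the length used.

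Ratios between chains were taken within each library. Alpha 4 exceeded alpha 5 by a ratio of 3.93, 4.07 and 4.01 per kilobase of exons in libraries 1, 2 and 3 (mean 4.00 ± 0.0723), the steadiest of the 8 ratios. Alpha 4 exceeded alpha 6 by 2.34, 2.26 and 2.10 (mean 2.23 ± 0.122). The size of both ratios depended on the length used. Per kilobase of the longest transcript, alpha 4 exceeded alpha 5 by a mean of 5.13 ± 0.0926 and alpha 6 by 1.52 ± 0.0833. Alpha L was below alpha M in every library, at ratios of 0.571, 0.719 and 0.690. All 3 ratios kept their side of 1 in each library.

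Beta 1 exceeded beta 2 by 3.29, 5.08 and 4.13 (mean 4.17 ± 0.894) and beta 7 by 5.04, 6.00 and 6.97 (mean 6.00 ± 0.967). Beta 2 exceeded beta 7 by a smaller margin of 1.53, 1.18 and 1.69 (mean 1.47 ± 0.259). The summed alpha 4, 5, 6, 9 and v chains stood at 2.18, 1.61 and 1.53 times Itgb1. Some of these alpha chains, alpha 4 and alpha v among them, also pair with other beta chains. The ratio of this sum to Itgb1 had a mean of 1.77 ± 0.357, and of 2.56 ± 0.498 per kilobase of the longest transcript. For the leukocyte integrins the excess of alpha chains was larger, since summed alpha L, M, X and D stood at 3.87, 4.71 and 4.09 times Itgb2 (mean 4.22 ± 0.438), and at 4.15 ± 0.429 times with alpha L and M alone. For each of the 8 ratios the exact sign-flip test (two-sided) gave p = 0.25, its lower limit here, and 0.25 after adjustment over the 8. These are RNA ratios, and no protein was measured.

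**Figure D3:**
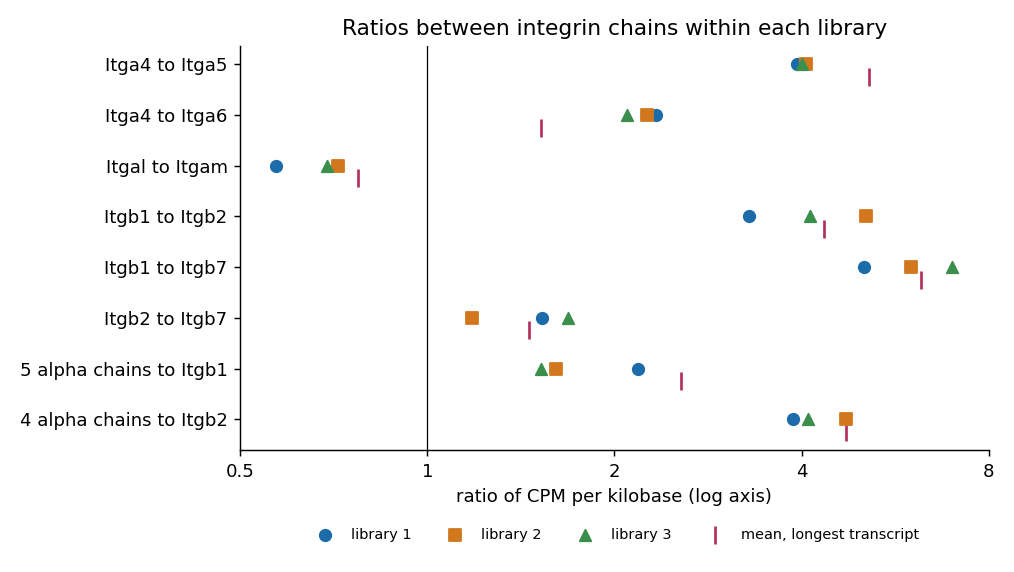
Ratio of CPM per kilobase of exons (log axis) between chains in each of the 3 libraries, with a tick for the mean of 3 when the longest transcript sets the length. Itga4 to Itga5 falls within 3.93 to 4.07, and Itgal to Itgam is the only ratio under 1.

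How much each chain varied between the libraries was set against all expressed genes. No member was over 2-fold apart between any libraries in log2(CPM + 0.5), against 1128 of 12965 expressed genes (8.7%). With ERCC spike-in totals as the scale, 9 of the 10 and 11007 genes were, with library 1 lowest for all 10 chains. The range from the lowest to the highest library had a median of 0.18 on the log2 scale over the 10 chains, from 0.05 for Itgav to 0.55 for Itga9. Over the 7259 genes between the lowest and the highest member in CPM that median was 0.26, and 6 of the 10 chains were under it.

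By a chi-square test of the counts with Benjamini-Hochberg adjustment, 7 of the 10 chains differed between libraries beyond read-counting noise, against 82.6% of expressed genes. Itga6, Itgav and Itgb7 did not pass (adjusted p = 0.166, 0.621 and 0.227). The smallest adjusted p of this chi-square test was that of Itgb1 (2.47e-47), whose 1.31-fold range is still moderate. This test picks up small gaps where reads are many. It also takes reads as independent, which reads of amplified cDNA are not. The quasi-dispersion test of edgeR, which asks whether a gene varies more than others of its abundance, called 0 of 10 chains (adjusted p from 0.983 to 0.999; 0 at an unadjusted p under 0.05) and 0.00771% of genes. The 1 gene called by that edgeR test was Elane, 9.71-fold apart between libraries (adjusted p = 0.0218). In the same edgeR test even Mpo, 3.52-fold apart between libraries, was not called (adjusted p = 0.140). Its count of 0 therefore says little about chains at most 1.47-fold apart. DESeq2 marked 0 of the 10 as dispersion outliers, against 0.231% of genes.

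Library 1 showed the clearest differences between chains. Relative to the mean of each gene in log2(CPM + 0.5), Itgb1 and Itgal were low there, at -0.24 and -0.16, while Itga9 was at 0.34, Itga5 at 0.11 and Itga4 at 0.08. In library 2, Itgb2 was at -0.22 and Itgam at -0.11. In all, 4 members were highest in library 1, 1 in library 2 and 5 in library 3, where 31.9%, 35.6% and 32.5% of expressed genes had their highest value. The lowest value fell in library 1 for 2 members, in library 2 for 5 and in library 3 for 3, against 44.3%, 23.6% and 32.1% of expressed genes. With TMM factors, DESeq2 size factors or totals without Rn45s, 6, 1 and 3 members were highest in libraries 1, 2 and 3, as Itga6 and Itgam then peaked in library 1.

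**Figure D4:**
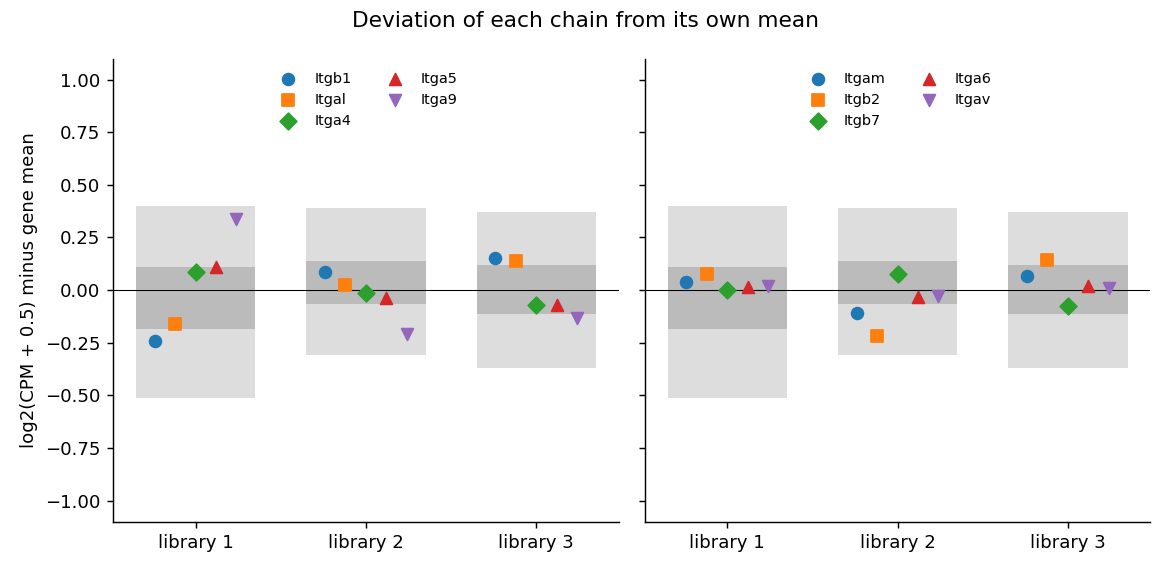
Deviation of each chain from its own mean in log2(CPM + 0.5) in the 3 libraries, with light and dark shading for the central 90% and 50% of 12965 expressed genes. Every chain stays within the light shading, and Itga9 in library 1 comes nearest its edge at 0.34.

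The members with the nearest values over the 3 libraries were Itga6 and Itgav, whose deviations differed by at most 0.01, followed by Itga4 and Itga5 with at most 0.03. Itgal lay nearest to Itgb1 (0.08) rather than to its own partner Itgb2, and Itgb2 lay nearest to Itgam (0.11). The farthest apart were Itga9 and Itgb1 (0.58). With only 3 libraries of 1 group, these gaps describe the libraries.

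The granulocyte-monocyte progenitor and neutrophil marker sums were further apart between the libraries than any chain. The 6 granulocyte-monocyte progenitor genes were 2.91-fold apart in sum, lowest in library 1 and highest in library 3, with Mpo, the myeloperoxidase gene, at 683, 1544 and 2403 CPM of it. Csf3r, the G-CSF receptor gene, ran the other way at 284, 243 and 231 CPM. In the order of the sum, Itgb1 and Itgal were also lowest in library 1 and highest in library 3, within 1.31-fold and 1.23-fold. Of all expressed genes, 44.3% were lowest in library 1 and 32.5% highest in library 3. The 11 HSPC genes fell in sum, at 3504, 3204 and 2983 CPM in libraries 1, 2 and 3. Itga4 and Itga5 were likewise highest in library 1 and lowest in library 3 with CPM from gene totals. The 9 neutrophil genes were 4.15-fold apart in sum, highest in library 1 and lowest in library 2. Itgam and Itgb2 were also lowest in library 2 (in library 1 with ERCC totals), within 1.13-fold and 1.29-fold, but highest in library 3, and Itga6, Itga9 and Itgav were lowest in library 2 too. Of the 9 neutrophil genes, 7 reached a mean of 1 CPM and were counted in all libraries, led in library 2 by Ngp at 15.4 and S100a9 at 9.76 CPM, and Mmp9 and Retnlg had no count in library 2. The 8 macrophage and dendritic cell genes summed to 52.8, 59.0 and 80.0 CPM, with 5 at 1 CPM or more and the macrophage marker Adgre1 at 0.391, 0.0398 and 0.433 CPM. Most of this sum was Cd68, at 28.3, 21.5 and 35.5 CPM, and Csf1r, at 15.5, 28.0 and 35.3 CPM. The list did not move as a whole, since C1qb was highest in library 1 (2.44, 1.16 and 1.40 CPM). Siglech and Xcr1 were highest in library 2. The part of these cells in the chain values was not tested beyond these values.

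**Figure D5:**
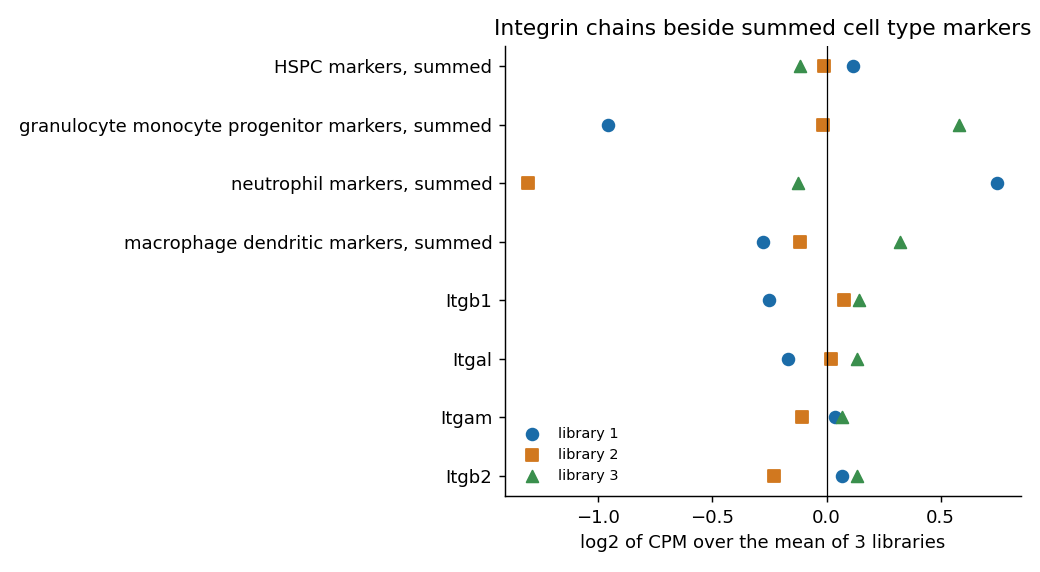
Log2 of the level in each library over the mean of 3 libraries, for marker genes summed over a list and for 4 chains in CPM. The neutrophil sum spans 4.15-fold and the granulocyte-monocyte progenitor sum 2.91-fold, while Itgam spans 1.13-fold.

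The remaining integrin genes were mostly low. Of 17 other alpha and beta genes, 10 reached 1 CPM, against 53.1% of all genes. Per kilobase of exons, the 7 alpha members made up 92.5 ± 0.749% of the summed level of 18 alpha genes, and the 3 beta members 85.4 ± 0.75% of that of 9 beta genes. The largest outside the set were the platelet receptor chains, with Itgb3 at 34.3, 47.9 and 52.0 CPM (mean 44.8 ± 9.28) and Itga2b, which encodes CD41, at 17.5, 30.8 and 24.6 CPM (mean 24.3 ± 6.61). Per kilobase, Itgb3 was at 7.59 ± 1.57 and Itgb7 at 7.58 ± 0.398.

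The collagen receptor chain Itga2 lay at 14.7 ± 2.44 CPM, Itgb5 at 8.62 ± 1.70, Itgae, the alpha E partner of beta 7, at 7.31 ± 1.71, Itgax, which encodes CD11c, at 3.77 ± 1.09, Itgb4 at 3.66 ± 1.78, Itga10 at 2.998 ± 0.487, Itga3 at 2.39 ± 0.476 and Itgb6 at 1.38 ± 0.420 CPM. Below 1 CPM were Itga1, Itga8, Itga11, Itgad and Itgb2l. Itgb2l was counted 65, 0 and 11 times in libraries 1, 2 and 3. Itga7 and Itgb8 had no count, which allows up to 0.120 CPM in the shallowest library (3 counts, counting error only).

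Talin and kindlin proteins bind beta chain tails inside the cell and switch integrins to their binding form, and Rap1 recruits talin. Of 14 such activator genes 11 reached 1 CPM (53.1% of all genes did), and the list's median was 119 CPM (1.73 CPM over all genes). The talin gene Tln1 was at 487, 474 and 415 CPM (mean 459 ± 38.4), the Rap1 effector gene Apbb1ip at 185 ± 2.21 and the adaptor gene Skap2 at 175 ± 23.5 CPM. The kindlins were unequal. Fermt3, the kindlin of blood cells, was at 111, 117 and 125 CPM (mean 117 ± 7.13), while Fermt1 was at 0.412 ± 0.338 and Fermt2, the lowest of the list, at 0.106 ± 0.184 CPM.

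Of 9 genes that restrain integrins, 8 reached 1 CPM (median 34.2 CPM), against 53.1% of all genes (median 1.73 CPM). Flna, which encodes filamin, a competitor of talin for beta chain tails, was highest at 321 ± 24.5 CPM, followed by Nisch at 225 ± 5.31 and the Rap1 GTPase activator gene Rasa3 at 131 ± 4.89, and Rap1gap was lowest at 0.994 ± 0.134 CPM. Of 23 adaptor and kinase genes 20 reached 1 CPM (median 64.0 CPM), against the same 53.1% and 1.73 CPM over all genes. The parvin gene Parvg led with 278 ± 13.4 CPM, then the PINCH gene Lims1 at 208 ± 18.1 and the zyxin gene Zyx at 199 ± 16.8, while Parva, Lims2 and Bcar1 had no count.

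All 8 genes of membrane partners reached 1 CPM (median 48.8 CPM), against 53.1% of all genes (median 1.73 CPM). Cd47 was at 515 ± 16.9, the tetraspanin gene Cd81 at 189 ± 18.3 and Slc3a2 at 105 ± 5.45 CPM. The urokinase receptor gene Plaur was lowest at 6.89 ± 1.31 CPM. Ligand genes had the lowest median of these 5 lists, 2.82 CPM, against 1.73 CPM over all genes. Of these 18 genes 14 passed the minimum, against 53.1% of all genes. The highest were the laminin gene Lamc1 at 32.9 ± 3.31, Icam2 at 29.1 ± 4.27 and Thbs1, which encodes thrombospondin, at 28.2 ± 14.4 CPM, and Madcam1 had no count. Thbs1 was at 12.9, 41.5 and 30.3 CPM and so low in library 1. Chosen after their values were seen, the main VLA-4 ligand genes Vcam1 and Fn1 were at 5.02 ± 1.35 and 2.40 ± 1.15 CPM. In the edgeR variability test Thbs1, 3.21-fold apart between libraries, had an adjusted p of 0.840.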

How the data were processed

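Each control library has 1 deposited file of raw counts by gene symbol, and per the submitters' processing notes TopHat2 2.0.9, HTSeq and DESeq2 were used with the mm10 build. No gene model, strand setting or HTSeq version is named in the sources used here, and without strand the reads of a gene and its antisense partner cannot be told apart. Per the labels' protocols, cDNA was amplified from 10 ng of RNA with poly(A) and random priming, so reads are not independent molecules. Of all entries, 38.2%, 34.1% and 40.0% were gene counts in libraries 1, 2 and 3, and 92 ERCC and 5 HTSeq category entries stayed out of totals and tests.

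CPM used gene totals without further factors. Tests took genes whose mean reached 1 CPM, logs were log2(CPM + 0.5), and a count of 0 was taken to allow 3 counts. The variability test was a robust quasi-likelihood fit in edgeR with an intercept alone and TMM factors, with an F test of quasi-dispersion over its trend. The chi-square test had 2 degrees of freedom, and both tests were adjusted over all 12965 genes with an adjusted p threshold of 0.05. Both were run on simulated counts. For the edgeR test every simulated gene had the dispersion of the trend, so that run does not show what the test can find in these data. Exon lengths came from GENCODE M21 (GRCm38), with 95.7% of symbols matched, and upstream sequences from RefSeq GRCm38.p6, which listed 7 of 10 members. The entry for Itga9 starts inside the gene and was not printed.

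The members and lists were chosen with earlier results of these data known. Named genes were all members, other integrin genes at 1 CPM or at 0, the 3 highest and the lowest of each pathway list, and defining markers. Outside this rule, Itga1, Itga8, Itga11, Itgad, Itgb2l, Fermt1, Fermt3, Vcam1 and Fn1 were named after their values were seen. The same holds for the markers Cd68, Csf1r, C1qb, Siglech and Xcr1. Alternatives were TMM and DESeq2 size factors, totals without Rn45s, ERCC totals, other lengths, pseudocounts and minima, and leaving out each library. Software was R 4.3.3 with edgeR 4.0.16 and DESeq2 1.42.0, and Python 3.11.15.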

Additional observations from a re-analysis of the deposited data

Results flagged for a closer look

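The ERCC spike-in entries, which lie outside the gene counts, held counts in every library and in unequal amounts. They came to 1.48%, 0.954% and 0.582% of the gene counts in libraries 1, 2 and 3, far above the 3 counts that a count of 0 allows. The sources used here do not give the amount of spike-in added. They were used for the integrin values only as an alternative scale.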

How the results depend on the processing

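No paired analysis was possible because all libraries belong to 1 group. The median level of the 10 chains, 88.2 CPM, was 97.2 with totals without Rn45s and 105 with ERCC totals, an alternative chosen after the data were seen. Totals without Rn45s raise every gene, by 0.18, 0.12 and 0.12 on the log2 scale in libraries 1, 2 and 3. ERCC totals shift every gene by -0.55, 0.09 and 0.80, and 9 of 10 chains (11007 of all genes) were then over 2-fold apart, against 0 of 10 otherwise. The median shift of the chains in library 1 against the others, 0.04, was 0.10 with DESeq2 size factors and 0.10 without Rn45s, and turned to -0.95 with ERCC totals (all genes -1.01). In library 2 it was -0.05, and -0.10 with DESeq2 size factors, and in library 3 it was 0.02, and 1.05 with ERCC totals (all genes 1.01). With a minimum of 5 CPM, 3 other alpha genes, 2 other beta genes and 7 ligand genes passed, by construction of the stricter filter. All 8 chain ratios kept their direction with each length used and without each library. The chains past the chi-square test numbered 5 to 7 with 1 library left out and 8 with DESeq2 size factors or without Rn45s, and the edgeR count stayed 0 in every setting run. Over all genes edgeR called 1 gene, 16 without a filter on low counts, 16 without library 1 and 2 without library 3. Per kilobase, Itgal passed Itga6 without library 1, and Itga5 passed Itgb2 without library 3. With plain CPM the ratio of Itga4 to Itga5 was 11.3, since length is then not divided out. The lowest member count was 416, so depth limits only genes near 0.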
